A study of Homo sapiens with 30 samples.

Results

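The genes described here encode subunits of the respiratory chain of UMUC1, a human bladder cancer cell line in which UTX is mutated with loss of its function (gene symbol KDM6A, a histone H3 lysine 27 demethylase). Members were taken by a rule on gene names. They are the 13 protein genes of mitochondrial DNA, and the nuclear genes whose names match patterns for subunits of complex I, complex III and complex IV. The patterns miss some subunits, such as CYC1 of complex III, so the nuclear sets are not complete. In all, 70 genes qualified in both deposited tables, of 58288 genes in the first and 20073 in the second. The 13 mitochondrial genes comprise 7 of complex I, 1 of complex III, 3 of complex IV and 2 of complex V. The 57 nuclear genes comprise 37, 9 and 11 of complexes I, III and IV. Complexes were assigned by gene name, so NDUFA4, now placed in complex IV, is counted under complex I throughout. Another 3 nuclear genes were listed in the first table only.

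RNA-seq was run on 30 libraries in 10 groups of 3, all harvested on day 3. In the first experiment (18 libraries) the cells stably carried the pSIN-puro vector, which was empty, encoded wild-type UTX, or encoded UTX with the changes H1146A and E1148A, which are known to disable the demethylase (HEAA). Each of these lines was grown in full medium, which is MEM with 10% fetal bovine serum, or in tumorsphere medium, which is serum-free MEM with B27, 20 ng/ml FGF2 and 20 ng/ml EGF. In the second experiment (12 libraries), in full medium, the cells carried pBabe-puro with wild-type FGFR3 or its S249C form, a receptor change found in bladder cancer, together with a pCDH-blasticidin vector that was empty or encoded wild-type UTX. All groups share the UTX-mutant parental line, so every UTX or HEAA group expresses the protein from a vector. The labels do not say whether the 3 libraries of a group are separate cultures, so the p-values measure only the spread between these libraries, which may be technical.

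The respiratory chain moves electrons from NADH and succinate to oxygen and pumps protons across the inner mitochondrial membrane, and ATP synthase uses the returning protons to make ATP. Complexes I, III and IV are built from 2 genomes. Mitochondrial DNA encodes hydrophobic membrane subunits and is transcribed inside the organelle as long RNAs from each strand that are cut into single transcripts, whereas nuclear subunits are transcribed gene by gene, translated in the cytosol and imported. The RNA of each class is therefore made by separate polymerases, and its levels can differ in direction.

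The deposited values are estimated read counts per gene. Library totals ran from 23749352 to 40111234 counts in the first experiment and from 21672408 to 28290664 in the second. KDM6A followed the labels. Its group means lay between 8.18 and 17.4 CPM (counts scaled to library size) with the empty vectors and between 579 and 943 CPM with UTX or HEAA, and FGFR3 rose from 1243 to 1301 CPM with its wild-type vector to 2322 to 2588 CPM with S249C. The urothelial markers KRT5, KRT13, KRT19, TP63, GATA3, EPCAM and CDH1 were present in both experiments. In the first experiment the fibroblast markers COL1A2, COL3A1, PDGFRB and DCN stayed under 1 CPM and the leukocyte markers PTPRC and CD3E at or under 0.425 CPM, while LUM reached 47.02 and COL1A1 22.1 CPM.

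Sequences show how the mitochondrial genes lie on their genome, which bears on how they can be counted (GRCh38, chrM, 5′ to 3′ of the coding strand). ND6, at chrM:14149-14673, is the only protein gene on the opposite strand and adjoins ND5, at chrM:12337-14148. The first 60 bases of each are shown with every G in capitals, because the strands differ in base content: G makes up 35.6% of ND6 and 10.6% of ND5. ATP8 and ATP6, which both encode membrane subunits of ATP synthase, share 46 bases, shown with the start codon of ATP6 in capitals.
ND5 (chrM:12337-12396, plus strand): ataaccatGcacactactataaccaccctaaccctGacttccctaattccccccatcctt
ND6 (chrM:14614-14673, minus strand): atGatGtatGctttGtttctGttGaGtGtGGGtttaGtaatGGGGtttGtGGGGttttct
ATP8 and ATP6 overlap (chrM:8527-8572, plus strand): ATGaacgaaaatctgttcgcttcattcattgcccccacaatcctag
The 2 genes of each overlapping pair (ATP8 and ATP6, ND4L and ND4, which share 7 bases, and ATP6 and COX3, which share 1) are uncertain relative to each other where reads fall in the overlap. The labels do not say whether the counting used strand, so RNA of the other strand that runs across ND6 cannot be told from ND6. Nuclear copies of mitochondrial DNA listed under their own names held between 0.0238% and 0.0827% of the counts of a library.

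Compared per kilobase of transcript, the 13 mitochondrial genes were the 13 highest of the members in both experiments. In the first experiment their means over all libraries ran from 7583 CPM per kilobase for COX2, which receives electrons from cytochrome c, and 5870 for COX1, which holds the site of oxygen reduction, down to 1108 for ND1, a membrane subunit of complex I. ND6 stood in place 8, at 1550. The highest nuclear member was COX6A1, a structural subunit of complex IV, at 289 CPM per kilobase, followed by COX6B1, another structural subunit, at 270.4. The second experiment had the same pair at the top, with COX2 at 3778 and COX1 at 3752, and COX6A1 and COX6B1 at 323 and 223 led the nuclear genes. The order of the nuclear genes depends on the length taken, which is that of the longest principal transcript in GENCODE. COX6A1 was divided by 572 bases, COX6B1 by 667 and COX7C by 1584.

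Of the forms known for restricted tissues, COX7A1, the muscle and heart form of COX7A2, stood at 0.137 CPM per kilobase in the first experiment and was not tested there. COX6A2, the muscle form of COX6A1, had 0 counts in all libraries of the first experiment, and COX7B2 and COX8C were near 0. COX6B2, the testis form of COX6B1, was low but measurable and is described further on. UQCRHL, a near-copy of UQCRH, was the lowest member of the first experiment at 0.0915 CPM per kilobase, and its values depend on how reads shared with UQCRH were assigned.

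As a share of all counts, the nuclear genes took between 0.364% and 0.739% and the mitochondrial genes between 1.02% and 5.07% of a library. With the empty vector in full medium the mitochondrial share was 4.58%, 4.19% and 3.92% in the 3 libraries and the nuclear share was 0.502%, 0.4999% and 0.514%. With the empty vector in tumorsphere medium the mitochondrial share was 2.26%, 2.15% and 2.43% and the nuclear share 0.739%, 0.709% and 0.728%. The 2 media did not overlap in either class, and the classes lay in opposite order. In these bulk libraries, fewer cells of a kind and less RNA per cell cannot be told apart.

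The count ratio of mitochondrial to nuclear members put the 10 groups on 1 scale within each experiment. In the first, it was 8.38 ± 0.738 (SD, n = 3) with the empty vector, 11.3 ± 0.682 with UTX and 11.7 ± 1.01 with HEAA in full medium. In tumorsphere medium it was 3.14 ± 0.171 with the empty vector, 5.22 ± 0.213 with UTX and 4.31 ± 0.521 with HEAA. The order of the groups was thus the empty vector lowest within each medium, and tumorsphere medium below full medium throughout, while UTX and HEAA in full medium differed by less than their spread. In the second experiment the ratio was 5.29 ± 0.476 with the empty vector and 5.94 ± 0.462 with UTX beside wild-type FGFR3. Beside S249C it was 3.64 ± 1.20 with the empty vector and 6.31 ± 0.727 with UTX. The group with S249C and the empty vector stood lowest there and had the widest spread.

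**Figure D1:**
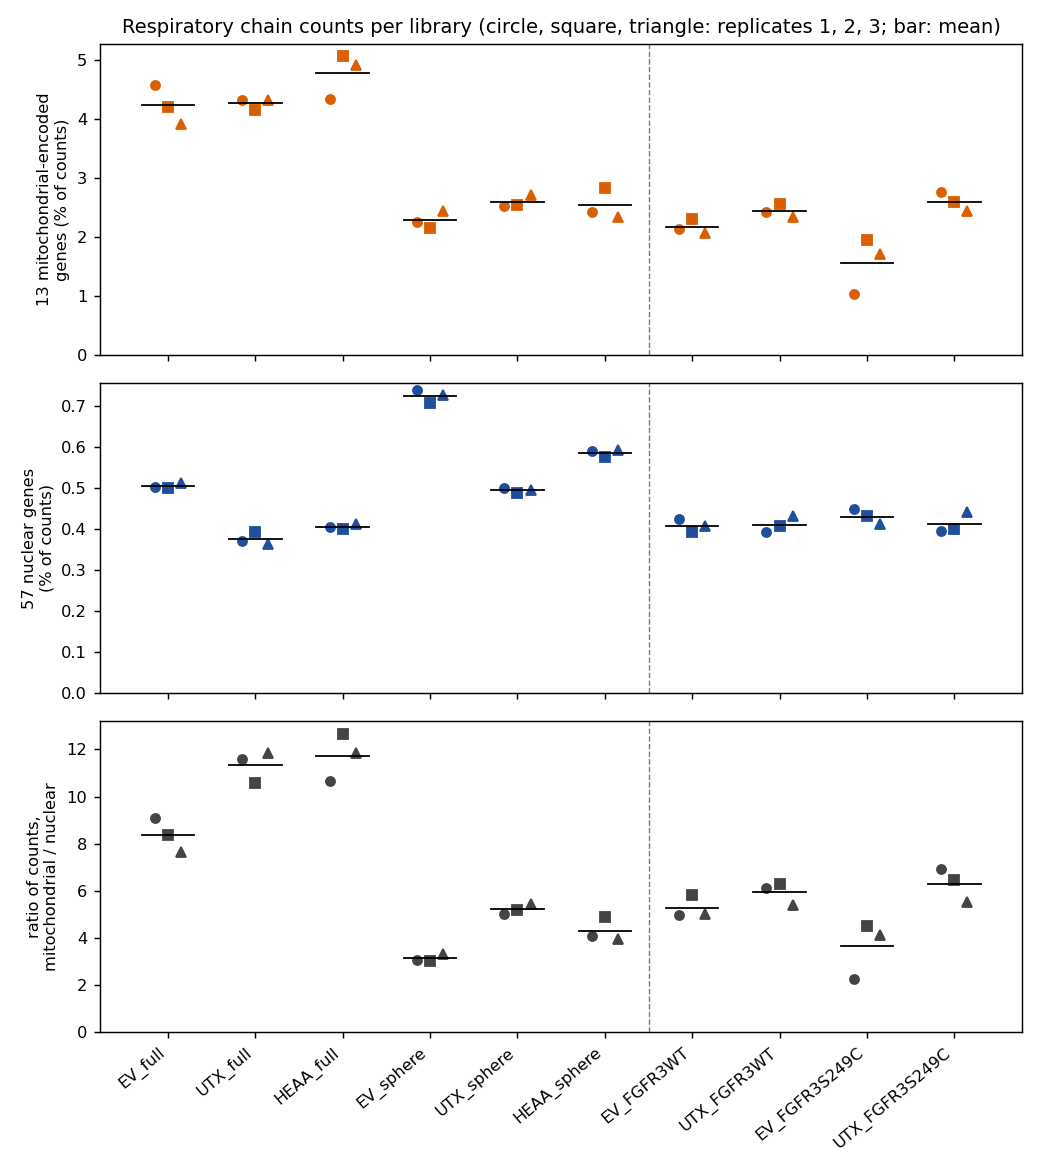
Percent of library counts from the 13 mitochondrial genes (top), percent from the 57 nuclear members (middle) and the ratio of their counts (bottom) in the 10 groups. Points are libraries, horizontal bars group means and the dashed line divides the experiments; within the first experiment tumorsphere libraries lie below full medium libraries in the top panel and, for each vector, above them in the middle panel, and 1 library of the S249C empty vector group is lowest at 1.02%.

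Medium was examined first, because tumorsphere medium is used to grow cells with stem-like properties and changes serum, B27 and growth factors together. Nuclear respiratory chain genes rose and mitochondrial genes fell in tumorsphere medium with every vector. With the empty vector, 50 of 55 tested nuclear members rose and 1 fell, beside 33.1% of all tested genes higher and 32.4% lower, and 13 of 13 mitochondrial genes fell. With UTX 50 nuclear members rose and 1 fell (background 35.1% and 35.4%), and with HEAA 52 rose and 1 fell (34.4% and 36.3%), and in both cases 13 of 13 mitochondrial genes fell. Some 49 nuclear members rose with all 3 vectors, which share no libraries. With 50 or 52 of 55 called for each vector, most of this overlap follows from the counts alone. The median log2 change of nuclear members was 0.62, 0.51 and 0.60 with the empty vector, UTX and HEAA, against -0.03, -0.06 and -0.07 over all tested genes. The median of the mitochondrial genes was -0.64, -0.43 and -0.71.

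All 3 complexes took part. With the empty vector, 33 of 37 nuclear members of complex I, 8 of 8 tested members of complex III and 9 of 10 tested members of complex IV rose, and COX6B2 fell. The 7 nuclear core subunits of complex I, which carry its flavin and iron-sulfur clusters, rose with each of the 3 vectors. NDUFS7, the core subunit next to the ubiquinone site, was at 37.7, 38.3 and 37.1 CPM in full medium and at 89.0, 80.3 and 82.8 CPM in tumorsphere medium with the empty vector. The groups lay far apart, with a log2 change of 1.16 ± 0.06 (SE, edgeR quasi-likelihood test, adjusted p = 9.42e-14). UQCRC1, a core protein of complex III, was at 181, 192 and 193 CPM in full medium and 420.1, 401 and 429 CPM in tumorsphere medium. Its log2 change of 1.14 ± 0.04 (edgeR adjusted p = 8.84e-16) was next in size.

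The structural subunits NDUFA8 (1.00), COX6B1 (0.98) and NDUFA6 (0.93) followed in log2 change with the empty vector. With UTX the highest changes were those of NDUFA8 (0.87), NDUFA6 (0.86), NDUFS7 (0.83), the core subunit NDUFS3 (0.81) and UQCRFS1 (0.81), the Rieske iron-sulfur protein of complex III. With HEAA they were UQCRFS1 (1.01), NDUFA8 (1.00), the complex III hinge protein UQCRH (0.98), NDUFA6 (0.94) and NDUFS4 (0.94). Members that did not pass the test were few: with the empty vector NDUFA2, NDUFA7, NDUFB1 and NDUFC2.

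Among the mitochondrial genes the fall was unequal. COX1 was at 11980, 11380 and 10660 CPM in full medium and at 6075, 5852 and 6415 CPM in tumorsphere medium with the empty vector. These groups did not overlap, and COX1 had the largest fall of the 13 genes with each vector, with log2 changes of -0.89, -0.92 and -1.02 for the empty vector, UTX and HEAA. COX3, another core subunit of complex IV, followed at -0.84, -0.71 and -0.86. ND1 fell least with the empty vector (-0.35), and ND3 was among the least changed with each vector (-0.42, -0.26 and -0.37). ND6 fell by 0.51, 0.36 and 0.65 on the log2 scale, within the range of the genes of the other strand. Its share of the mitochondrial counts was 2.14% in full and 2.45% in tumorsphere medium with the empty vector.

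**Figure D2:**
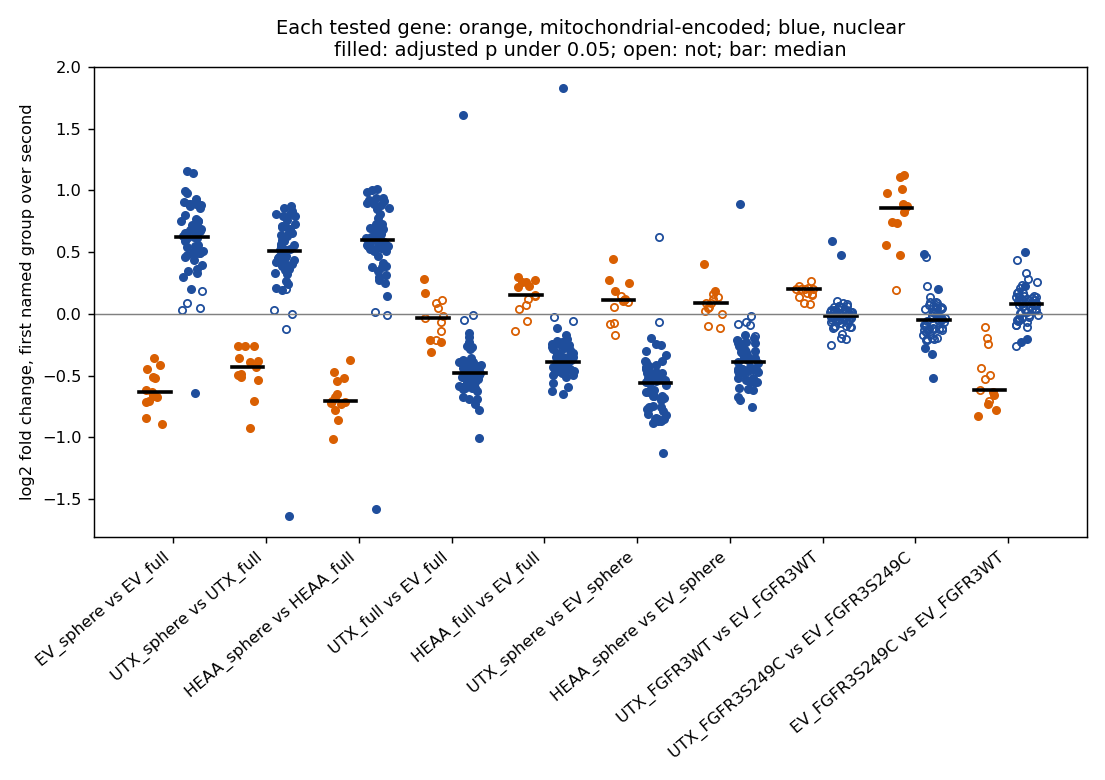
Log2 fold change (first named group over second) of each tested member in 10 comparisons, mitochondrial genes in orange and nuclear genes in blue, filled where the adjusted p is under 0.05, with bars at the medians. For tumorsphere against full medium the nuclear medians lie at 0.62, 0.51 and 0.60 and the mitochondrial ones at -0.64, -0.43 and -0.71, and for UTX beside S249C the mitochondrial median lies at 0.86.

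Other genes of mitochondrial biology, grouped in lists, moved in the same comparison with the empty vector as follows. The shares over all tested genes were 33.1% higher and 32.4% lower. All 4 subunits of complex II, all 18 tested nuclear genes of ATP synthase and its inhibitor, and 12 of 13 citrate cycle genes rose. So did 65 of 78 mitochondrial ribosome genes (4 fell), 27 of 45 assembly factors (4 fell) and all 14 genes of the outer membrane and protein import. SDHB, the iron-sulfur subunit of complex II, rose by 1.12 in log2, and CYCS, cytochrome c, by 1.23. By contrast, 16 of 24 mitochondrial ribosomal and transfer RNAs fell and 2 rose, and 13 of 17 tested nuclear copies of mitochondrial DNA fell. Whether these copies took reads of the mitochondrial genes was not tested. Scaling by library totals alone moved the median of all genes from -0.03 to -0.21 and the split of all calls from 6503 higher and 6355 lower to 4587 higher and 8572 lower. Under that scaling 47 nuclear members rose, 3 fell, and the 13 mitochondrial genes fell. The macrophage-linked genes CD68 and CD14 were also higher in tumorsphere medium with the empty vector, at no more than 14.4 and 2.89 CPM in any library, with the leukocyte-defining PTPRC at or under 0.425 CPM.

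Wild-type UTX was then compared with the empty vector within each medium. Nuclear respiratory chain genes fell in both media. Of the 13 mitochondrial genes 8 were not called in full medium and 4 rose in tumorsphere medium. In full medium 52 of 55 nuclear members were lower and 1 higher with UTX, beside 29.2% of all tested genes lower and 28.4% higher. In tumorsphere medium 53 were lower and 0 higher, beside 25.6% and 22.8%, and DESeq2 gave the same counts there. The lower genes of the 2 media, which come from separate libraries, shared 51 members, 98.1% of the 52 and 96.2% of the 53. With so many of the 55 called in each medium, nearly all of this overlap follows from the counts alone. Median log2 changes of the nuclear members were -0.48 in full and -0.56 in tumorsphere medium, against 0.04 and -0.01 over all genes. For mitochondrial genes the medians were -0.03 and 0.12.

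UQCRC2 (ENSG00000140740, chr16:21952660-21983660, plus strand, GRCh38), a core protein of complex III, had the largest fall in both media. In full medium it was at 331, 326 and 338 CPM with the empty vector, at 168, 171 and 158 CPM with UTX, and at 283, 272 and 286 CPM with HEAA. In tumorsphere medium it was at 599, 602 and 638 CPM with the empty vector, at 289, 279 and 275 CPM with UTX, and at 525, 529 and 530.1 CPM with HEAA. The 3 vectors were separate in each medium, with HEAA close to the empty vector and UTX at about the full-medium level of HEAA even in tumorsphere medium. UTX against the empty vector gave log2 changes of -1.003 ± 0.037 in full (edgeR adjusted p = 2.24e-15) and -1.12 ± 0.04 in tumorsphere medium (adjusted p = 3.87e-16).

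In full medium UQCRC2 was followed by NDUFA6 (-0.78), COX7B (-0.73), NDUFA1 (-0.69) and UQCRH (-0.69), all structural subunits. NDUFA6 averaged 64.8 CPM with the empty vector and 37.9 CPM with UTX, and COX7B 162 and 97.9 CPM. In tumorsphere medium the next were NDUFB7 (-0.89), NDUFV1 (-0.87), which binds NADH, COX6C (-0.87) and NDUFS7 (-0.85). NDUFV1 was at 258, 231 and 256 CPM with the empty vector and at 138, 133 and 136 CPM with UTX there, so the groups did not overlap. By complex, 36 of 37 members of complex I, 7 of 8 of complex III and 9 of 10 of complex IV fell in full medium, and 36, 8 and 9 in tumorsphere medium. NDUFB5 and UQCRC1 did not pass in full medium, and COX6B2 and NDUFC2 did not in tumorsphere medium.

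Short transcripts as a class were also lower with UTX. Protein-coding genes with transcripts under 1000 bases had a median log2 change of -0.26 in full medium, with 399 of 810 lower, and their share of the counts was 5.57% with the empty vector and 4.22% with UTX. Over all tested genes 29.2% were lower. Nuclear members under 1000 bases had a median of -0.48 (28 of 28 lower), and those of 1000 bases or more had one of -0.46 (24 of 27 lower). With medium the class moved the other way: 378 of the 810 were higher in tumorsphere medium with the empty vector, with a median of 0.21, and their share of the counts was 6.53%. Over all tested genes 33.1% were higher there. There nuclear members under 1000 bases had a median of 0.55 and those of 1000 bases or more one of 0.68. The part of transcript length in these changes was not tested further.

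Of the mitochondrial genes in full medium, ND1 (0.28, edgeR adjusted p = 0.00166) and ND5 (0.17, adjusted p = 0.0474, with overlapping libraries) were higher with UTX. The ND5 call was lost by DESeq2, with scaling without mitochondrial genes, with the replicate block, and without empty vector replicate 2 or replicate 3 or UTX replicate 1 or replicate 3. COX2 (-0.31), ND3 (-0.23) and COX3 (-0.21) were lower. In tumorsphere medium CYTB, the cytochrome b of complex III and its only mitochondrial subunit, was at 1124, 1039 and 1147 CPM with the empty vector and 1407, 1531 and 1576 CPM with UTX. It was higher in every UTX library, with a log2 change of 0.45 ± 0.06 (edgeR adjusted p = 5.1e-06). Thus within complex III in tumorsphere medium, CYTB rose while the 8 tested nuclear subunits fell. ND6 (0.27), ND5 (0.25) and ND4 (0.19) also rose there, and by library totals alone 9 mitochondrial genes rose in place of 4. The log2 ratio of mitochondrial to nuclear counts was higher with UTX by 0.44 in full and 0.73 in tumorsphere medium.

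**Figure D3:**
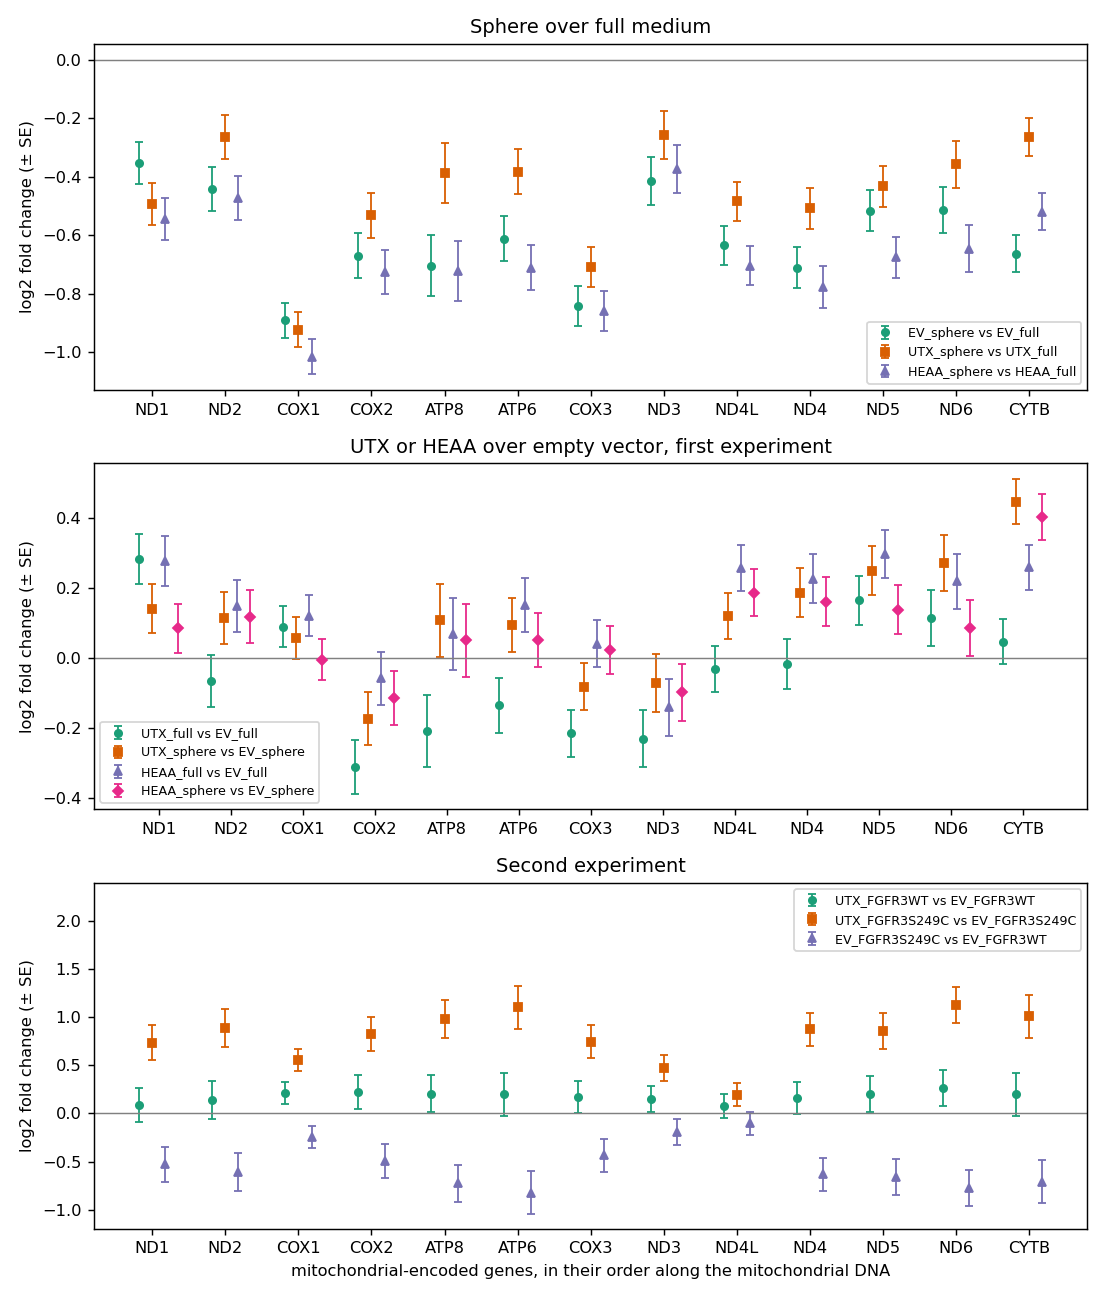
Log2 fold change of the 13 mitochondrial genes, in their order along the mitochondrial DNA, with SE as error bars, for medium (top), for UTX and HEAA against the empty vector in the first experiment (middle) and for the second experiment (bottom). COX1 falls furthest in the top panel, CYTB is highest in tumorsphere medium in the middle panel (0.45 with UTX and 0.40 with HEAA), and ND4L is lowest for UTX beside S249C (0.19).

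Nuclear genes of other mitochondrial functions were lower with UTX as well. In full medium 78 of 78 mitochondrial ribosome genes fell, with a median of -0.48, as did 4 of 4 complex II genes, 15 of 18 ATP synthase genes, 12 of 13 citrate cycle genes and 13 of 14 import genes. Over all tested genes 29.2% fell and 28.4% rose there. Among factors for assembly, 33 of 45 fell and 1 rose, and among those for mitochondrial DNA and RNA 24 of 29 fell. TFAM, which packages mitochondrial DNA and starts its transcription, fell by 0.80 in log2, and the import pore TOMM40 fell by 1.06. CYCS fell by 0.90 and CYC1, the cytochrome c1 of complex III, which the naming rule does not take in, fell by 0.68. In tumorsphere medium 66 of 78 mitochondrial ribosome genes, 16 of 18 ATP synthase genes and 4 of 4 complex II genes fell, and 1 ATP synthase gene rose. The shares of all tested genes were 25.6% lower and 22.8% higher. Mitochondrial ribosomal and transfer RNAs were mostly not called. In full medium 3 of 24 were higher and 3 lower, below the shares of all genes. In tumorsphere medium 2 were higher and 7 lower, the latter near the share of all genes.

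The HEAA form tests what remains when the demethylase is disabled. It shares its empty vector libraries with the UTX comparison, so both are given by their own values. With HEAA in full medium 52 of 55 nuclear members fell and 1 rose, beside 25.3% and 23.2% of all genes. In tumorsphere medium 49 fell and 1 rose, beside 21.5% and 19.9%, and the 49 all belonged to the 52 of full medium. With so many of the 55 called in each medium, most of this overlap follows from the counts alone. The nuclear medians were -0.39 in both media. Per complex, 35 of 37 members of complex I, 8 of 8 of complex III and 9 of 10 of complex IV fell in full medium. The lowest log2 changes in full medium were those of NDUFA1 (-0.64), NDUFA6 (-0.62), UQCRH (-0.59), COX7B (-0.56) and NDUFA12 (-0.51). In tumorsphere medium they were those of NDUFB7 (-0.75), NDUFS7 (-0.70), NDUFA1 (-0.67), NDUFV1 (-0.61) and NDUFA6 (-0.61).

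UQCRC2 changed far less with HEAA, by -0.24 ± 0.04 in full (edgeR adjusted p = 9.78e-06) and -0.21 ± 0.04 in tumorsphere medium (adjusted p = 4.68e-05). Of the mitochondrial genes 6 rose with HEAA in full medium and 0 fell, namely ND5 (0.30), ND1 (0.28), CYTB (0.26), ND4L (0.26), ND4 (0.23) and ND6 (0.22). With 1 library left out this count ran from 4 to 8, with 4 called without empty vector replicate 2 or replicate 3 or HEAA replicate 2 or replicate 3, and by library totals alone it was 9. CYTB (0.40) and ND4L (0.19) rose in tumorsphere medium. There the count was 6 by library totals alone, 4 without empty vector or HEAA replicate 3, and 1, without ND4L, when empty vector replicate 1 or replicate 2 or HEAA replicate 2 was left out. Mitochondrial ribosome genes were lower for 75 of 78 in full medium with a median of -0.39, beside 25.3% of all genes lower. In tumorsphere medium 57 were lower and 5 higher, with a median of -0.20, beside 21.5% and 19.9% of all genes. In full medium the short coding genes had a median of -0.21.

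Set directly against each other, UTX and HEAA differed in some nuclear members, all lower with UTX. In full medium 10 of 55 were lower and 0 higher, near the background of 12.4% lower and 8.95% higher. In tumorsphere medium 36 were lower and 0 higher, beside 11.2% and 8.87%. Of the 10, 8 were also among the 36, which is 80.0% of the 10 and 22.2% of the 36. Over all 55 tested nuclear members 65.45% were lower in tumorsphere medium. UQCRC2 led both lists, with log2 differences of -0.76 ± 0.04 in full (edgeR adjusted p = 5.86e-12) and -0.91 ± 0.04 in tumorsphere medium (adjusted p = 1.16e-12). NDUFB9, a structural subunit of complex I, followed in both, at 73 CPM with UTX and 88.7 with HEAA in full medium (-0.28) and at 110 and 147 CPM in tumorsphere medium (-0.42). NDUFB10 (-0.25), NDUFS6 (-0.20) and NDUFB3 (-0.19) came next in full medium, and COX7B (-0.36), NDUFA4 (-0.34) and COX6C (-0.31) in tumorsphere medium.

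In full medium 7 of 13 mitochondrial genes were lower with UTX than with HEAA, from ND4L and ATP6 (both -0.29) to ND2 and CYTB (both -0.21). Calls of members in this comparison ran from 6 to 20, against 17, when 1 library was left out, with the lowest number without HEAA replicate 3. The mitochondrial calls fell from 7 to 1 without HEAA replicate 2, 2 without HEAA replicate 3, 3 without UTX replicate 2 and 4 without UTX replicate 3, and the nuclear calls from 10 to 4 without HEAA replicate 3 or UTX replicate 3 and 6 without UTX replicate 1, and rose to 17 without UTX replicate 2. In tumorsphere medium edgeR called 0 mitochondrial genes, 1 passed an unadjusted p of 0.05 (31% of all genes did), and DESeq2 called 0. The ratio of mitochondrial to nuclear counts differed by -0.05 in log2 in full medium, where the libraries overlapped, and by 0.28 in tumorsphere medium.

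**Figure D4:**
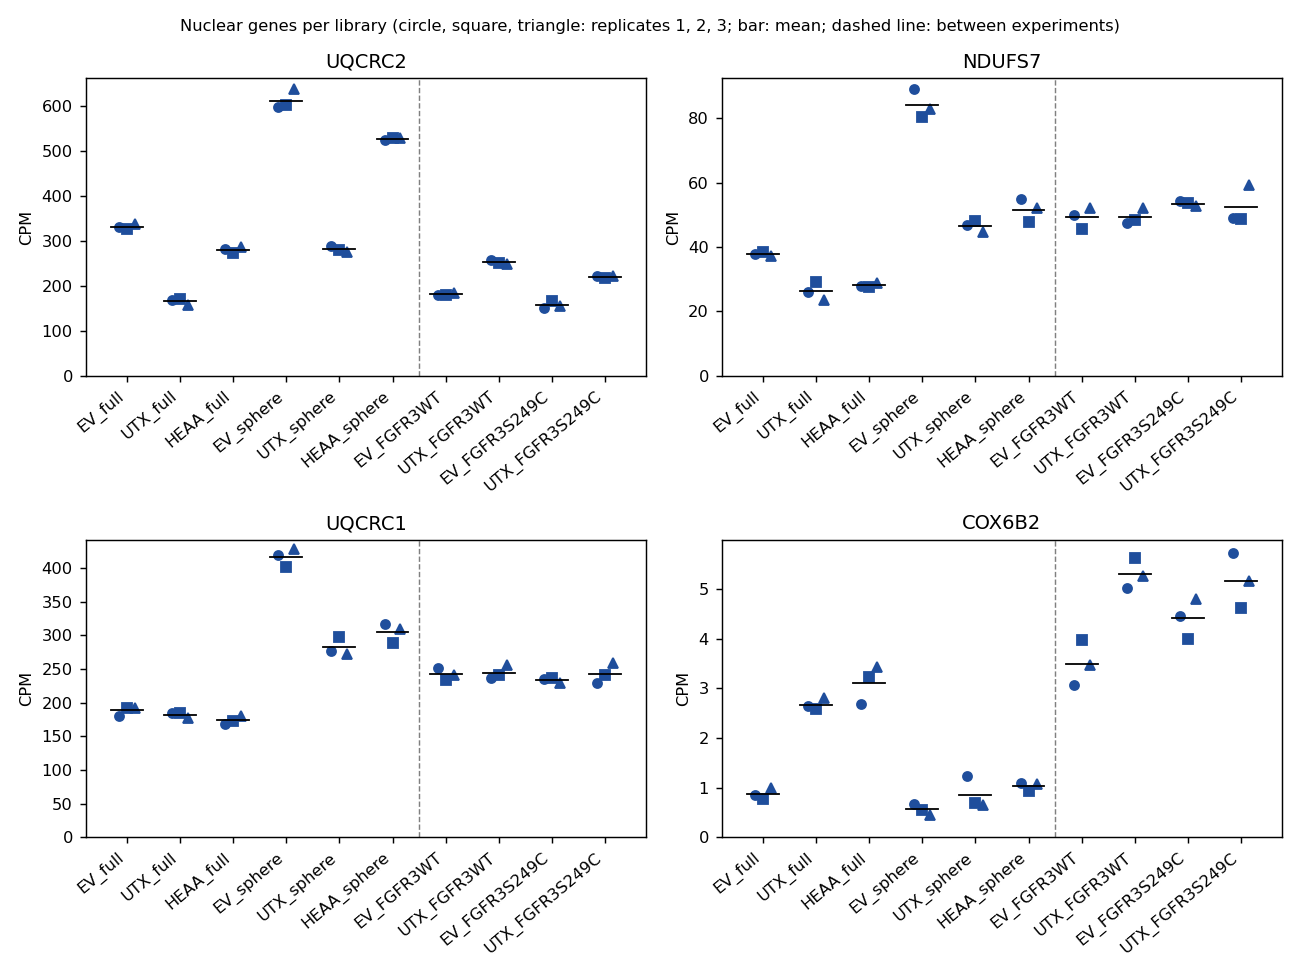
CPM of UQCRC2, NDUFS7, UQCRC1 and COX6B2 in each library of the 10 groups, with bars at group means and a dashed line between the experiments, which were scaled separately. UQCRC2 is lowest with UTX in each medium of the first experiment and higher with UTX than with the empty vector in the second, and UQCRC1 is near 1 level in full medium and higher with the empty vector than with UTX or HEAA in tumorsphere medium.

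Whether the UTX difference depended on medium was tested as an interaction. Of the nuclear members 20 had a more negative UTX effect in tumorsphere medium and 3 a more positive one, beside 16.2% and 21.1% of all genes, and of the mitochondrial genes 1 was more positive and 0 more negative. UQCRC1 was the clearest case. Its mean was 188.5 CPM with the empty vector and 182 CPM with UTX in full medium (log2 change -0.05, adjusted p = 0.349), and 417 and 282 CPM in tumorsphere medium (-0.56). The interaction was -0.51 ± 0.06 (edgeR adjusted p = 9.45e-07). COX6C (-0.47), NDUFV1 (-0.42), NDUFA5 (-0.42) and COX6A1 (-0.39) followed, whereas NDUFC2 (0.22), NDUFB3 (0.22) and NDUFV3 (0.17) went the other way. With 1 library left out the negative count ran from 13 (without UTX tumorsphere replicate 2) to 22 and the positive from 1 to 6 (without empty vector tumorsphere replicate 1). It was 14 negative and 7 positive by library totals alone, with 4 mitochondrial genes positive, and 12 and 6 with no filter on low counts, with 10. CYTB was the mitochondrial gene, at 0.40 ± 0.09 (adjusted p = 0.00132). For UQCRC2 the interaction was -0.12 with an adjusted p of 0.0739.

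For HEAA, 8 of 55 nuclear members had a more negative effect in tumorsphere medium and 4 a more positive one, beside 14.3% and 18.7% of all genes. UQCRC1 (-0.33), NDUFV1 (-0.28), NDUFS7 (-0.28), NDUFB7 (-0.26) and COX6C (-0.26) were the most negative. NDUFA12 (0.34), NDUFV2 (0.34), NDUFC2 (0.23) and UQCRFS1 (0.21) were positive. The split did not hold to 1 direction: it turned to 3 negative and 8 positive without HEAA full medium replicate 3, to 5 and 8 without empty vector full medium replicate 2, to 3 and 7 without HEAA tumorsphere replicate 2, to 3 and 6 without empty vector tumorsphere replicate 1, and to 7 and 8 by library totals alone. For mitochondrial genes edgeR and DESeq2 called 0, and 0 passed an unadjusted p of 0.05, beside 41.5% of all genes.

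COX6B2 (testis form of COX6B1) ran against the other nuclear members. In full medium it was at 0.85, 0.762 and 0.993 CPM with the empty vector, at 2.64, 2.59 and 2.8 CPM with UTX, and at 2.68, 3.22 and 3.43 CPM with HEAA. Both rises passed the test, with log2 changes of 1.61 ± 0.19 (edgeR adjusted p = 2.91e-07) and 1.83 ± 0.19 (adjusted p = 6.76e-08). Its widely expressed counterpart COX6B1 averaged 151 CPM with the empty vector, 114 with UTX and 114 with HEAA in full medium. In tumorsphere medium COX6B2 was at 0.668, 0.557 and 0.453 CPM with the empty vector, while COX6B1 stood at 298 CPM. There the log2 change of COX6B2 with UTX (0.62) did not pass, while that with HEAA (0.89) did, at a HEAA mean of 1.03 CPM. Against full medium, COX6B2 fell with each vector in tumorsphere medium, by 0.64, 1.63 and 1.58 on the log2 scale for the empty vector, UTX and HEAA. With the empty vector (adjusted p = 0.025 by edgeR) this call was lost by DESeq2, with no filter on low counts, and without full medium replicate 3 or tumorsphere replicate 2 or replicate 3.

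The second experiment asked for the UTX effect beside wild-type or S249C FGFR3 in full medium. Nuclear respiratory chain genes changed little in it. Beside wild-type FGFR3, 2 of 57 nuclear members were higher with UTX and 0 lower, below the background of 9.06% higher and 6.01% lower. The 2 genes were UQCRC2 and COX6B2. Of the mitochondrial genes edgeR and DESeq2 called 0 and 0 passed an unadjusted p of 0.05, beside 27.2% of all genes, with a median log2 change of 0.20. The median of the nuclear members was -0.01. Of the mitochondrial ribosome genes 6 of 78 were lower.

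UQCRC2 was at 180.0, 179 and 185 CPM with the empty vector and at 258, 251 and 249.8 CPM with UTX beside wild-type FGFR3. Beside S249C it was at 152, 166 and 155 CPM with the empty vector and at 223, 218 and 222 CPM with UTX. All UTX libraries were above all empty vector libraries, with log2 changes of 0.48 ± 0.04 beside each receptor (edgeR adjusted p = 1.37e-06 and 9.53e-07). The direction is opposite to that in the first experiment, in which UTX libraries were lowest. The difference between the experiments was not tested, and vector, receptor and library kit all changed between them and cannot be told apart. COX6B2 averaged 3.5 CPM with the empty vector and 5.31 CPM with UTX beside wild-type FGFR3 (0.59 ± 0.13, edgeR adjusted p = 0.00446), the same direction as in full medium of the first experiment. Beside S249C it averaged 4.42 CPM with the empty vector and 5.175 CPM with UTX and did not pass.

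The UQCRC2 promoter is shown because the gene had the largest fall with UTX in the first experiment and rose with it in the second, and the promoters of NDUFB7 and COX6B1 because they hold a match to a motif of ETS factors such as NRF2 (GABP), a known regulator of respiratory chain genes. These were chosen after values and motifs were seen. Each line gives the 250 bases before the transcript start from RefSeq (GRCh38.p14, 5′ to 3′ along the gene), with a match to CCGGAAG or its reverse complement in capitals. The RefSeq starts of UQCRC2 and COX6B1 lie downstream of the gene starts in GENCODE, so that the UQCRC2 stretch and part of the COX6B1 stretch fall inside the gene by GENCODE.
UQCRC2 (chr16:21953111-21953360, plus strand): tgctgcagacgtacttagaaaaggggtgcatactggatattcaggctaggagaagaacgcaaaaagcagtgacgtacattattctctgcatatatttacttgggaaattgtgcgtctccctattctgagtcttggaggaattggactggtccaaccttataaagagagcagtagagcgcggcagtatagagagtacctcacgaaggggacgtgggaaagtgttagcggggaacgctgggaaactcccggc
NDUFB7 (chr19:14572067-14572316, minus strand): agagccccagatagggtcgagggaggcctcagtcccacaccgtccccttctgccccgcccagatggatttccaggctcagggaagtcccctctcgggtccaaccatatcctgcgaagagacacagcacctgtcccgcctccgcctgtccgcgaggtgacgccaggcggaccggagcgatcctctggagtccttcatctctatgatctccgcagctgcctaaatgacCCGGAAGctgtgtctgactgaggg
COX6B1 (chr19:35648073-35648322, plus strand): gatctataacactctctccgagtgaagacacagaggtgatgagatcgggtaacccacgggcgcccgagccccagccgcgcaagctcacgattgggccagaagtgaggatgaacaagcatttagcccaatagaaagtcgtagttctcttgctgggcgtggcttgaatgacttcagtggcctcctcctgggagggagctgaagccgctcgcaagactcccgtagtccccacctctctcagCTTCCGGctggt
Of the nuclear members 47 had a promoter in the table. Searched on both strands from 250 bases before to 50 after the start, CCGGAAG was found in 12 of 47 (25.5%) against 10.3% of all 35116 promoters. The YY1 motif AAGATGGCG was found in 6 (12.8% against 1.75%), the NRF1 motif GCGCATGCG in 5 (10.6% against 1.92%), and the ERR motif TCAAGGTCA in 0 (0.353% of all). The letters of the YY1 and NRF1 motifs were shortened by a base or more after a first search. Members were counted with the first listed promoter of each gene, and the background with every listed promoter. For both reasons the shares are not a like comparison and do not measure enrichment. These are matches of letters only.

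Beside S249C, the mitochondrial genes rose with UTX, while few nuclear members were called, below the shares of all genes. There 12 of 13 mitochondrial genes were higher and 0 lower, and 2 of 57 nuclear members higher and 3 lower, beside 12.9% of all genes higher and 8.62% lower. ND6 was at 215, 490.1 and 361 CPM with the empty vector and at 813, 759.7 and 751 CPM with UTX. All UTX libraries were higher, with a log2 change of 1.12 ± 0.19 (edgeR adjusted p = 0.000525), the largest of the 13. ATP6, which forms the proton path of ATP synthase, was at 527, 1413 and 1065 CPM with the empty vector and 2304, 2156 and 2001 CPM with UTX (1.11 ± 0.22, adjusted p = 0.00244).

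CYTB (1.01), ATP8 (0.98), ND2 (0.89), ND4 (0.88), ND5 (0.86), COX2 (0.83), COX3 (0.75), ND1 (0.74), COX1 (0.56) and ND3 (0.48) followed. ND4L, at 0.19, did not pass. Replicate 1 of the empty vector group was far below its partners, with 1.02% mitochondrial counts against 1.95% and 1.71%. Without it the median change of the mitochondrial genes was 0.60 in place of 0.86, and 12 were still called. Of the mitochondrial ribosomal and transfer RNAs 10 of 15 rose and 0 fell. Of 14 nuclear copies of mitochondrial DNA 5 rose and 0 fell, beside 12.9% of all genes higher and 8.62% lower.

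The nuclear members that moved beside S249C were UQCRC2 and NDUFA4 (0.20), a subunit now placed in complex IV, which rose, and UQCRHL (-0.52), COX6C (-0.32) and NDUFB3 (-0.28), which fell. Without replicate 1 of the empty vector group 0 nuclear members fell and 1 rose, and the calls of those 3 genes and of NDUFA4 were lost. Without UTX replicate 1 or replicate 2 only 1 fell, and 10 fell without UTX replicate 3, 6 without empty vector replicate 3 and 8 by DESeq2. Of the mitochondrial ribosome genes 18 of 78 fell and 4 rose, beside 8.62% of all genes lower and 12.9% higher. By library totals alone 10 nuclear members fell and 1 rose, and the split of all calls went from 2499 higher and 1672 lower to 2111 higher and 2489 lower.

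**Figure D5:**
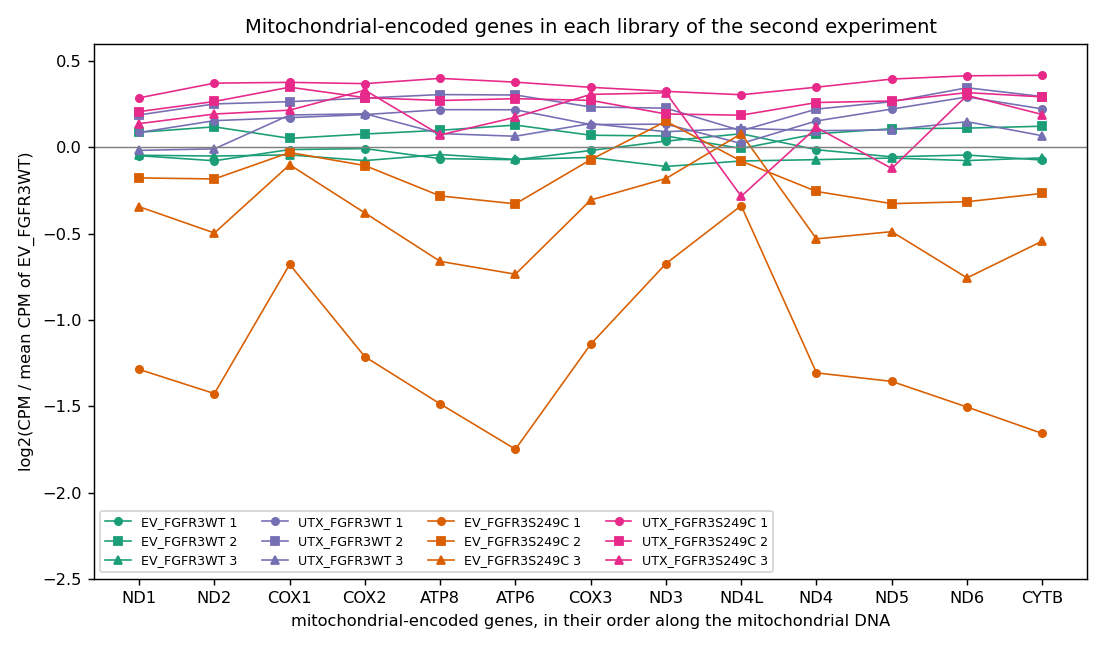
Log2 of the CPM of each of the 13 mitochondrial genes over its mean in the group with wild-type FGFR3 and the empty vector, for each of the 12 libraries of the second experiment (1 line each, colour for group and marker for replicate). Replicate 1 of the S249C empty vector group, with 215 CPM of ND6, lies below the other libraries for all genes, and the 4 groups come close together at ND4L.

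The S249C receptor was also compared with the wild-type receptor within each vector. FGFR3 itself averaged 2322 CPM with S249C against 1301 with wild type beside the empty vector, and 2588 against 1243 beside UTX. The form of the receptor and its level therefore cannot be told apart. With the empty vector 5 of 13 mitochondrial genes were lower with S249C and 0 higher, and 2 of 57 nuclear members were higher and 2 lower, beside 4.31% of all genes higher and 6.45% lower. The mitochondrial genes were ATP6 (-0.82), ND6 (-0.78), ATP8 (-0.73), ND5 (-0.66) and ND4 (-0.63). ND6 was at 591, 659 and 578 CPM with wild-type FGFR3, above all 3 S249C libraries. This count rested on single libraries: it was 8 without replicate 1 and 11 without replicate 2 of the S249C group, and 0 without replicate 2 and 1 without replicate 1 or replicate 3 of the wild-type FGFR3 group. It was 3 without replicate 3 of the S249C group. UQCRHL (0.50) and NDUFB9 (0.23) were higher and NDUFV2 (-0.23) and UQCRC2 (-0.20) lower among nuclear members.

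With UTX, 1 of 57 nuclear members was lower with S249C, beside 1.34% lower and 1.71% higher over all genes, and it was UQCRC2 (-0.20, edgeR adjusted p = 0.0166). The call was lost when any 1 of the 6 libraries except S249C replicate 3 was left out. Of the mitochondrial genes edgeR and DESeq2 called 0 and 0 passed an unadjusted p of 0.05, beside 14.3% of all genes. ND6 stood at 747, 775 and 676 CPM with wild-type FGFR3 and UTX, overlapping the S249C libraries with UTX.

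The interaction of UTX with the receptor was not called for any member by edgeR or by DESeq2, beside 0.572% of all genes more positive and 0.113% more negative. At an unadjusted p of 0.05, 10 mitochondrial and 4 nuclear members passed, beside 10.8% of all genes. The interaction of ND6 was 0.86 ± 0.26 with an edgeR adjusted p of 0.218, so the larger mitochondrial change beside S249C is not shown to differ from that beside wild-type FGFR3. For UQCRC2 it was 0.00 (adjusted p = 0.992).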

How the data were processed

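Estimated counts per gene, deposited by the authors as whole numbers in 1 table for each experiment, were used. Salmon 0.8, DESeq2 and the build hg19 (GRCh37) are named in the submitters' processing notes. The strand setting is not given in these sources. First-experiment libraries used TruSeq and the second NEBNext Ultra II, per the labels' protocols. Coordinates, transcript lengths and mitochondrial sequences come from GENCODE on GRCh38 and promoters from RefSeq, matched by symbol or gene ID. Where GENCODE marks principal transcripts, the longest of the top rank gave the length of a gene.

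Each experiment was fitted over all its genes with edgeR 4.0.16 (R 4.3.3): filterByExpr by group, TMM factors, a mean per group, and the quasi-likelihood test with Benjamini-Hochberg adjustment over all genes tested (19629 and 19399). A gene was called at an adjusted p under 0.05. The filter passed 55 and 57 of the 57 nuclear members (COX7A1 and UQCRHL did not pass in the first) and the 13 mitochondrial genes. CPM values use TMM factors. In the first experiment the biological coefficient of variation was 4.58%, in the second 6.05%. No replicate pair agreed within sampling noise (lowest chi-square per gene 2.08). Ratios and medians over members carry no test. Fits were also run on simulated data in which only a small part of the genes changed. That run does not test the scaling where many genes change, as in the first experiment. Intervals and standard errors cover the spread between libraries of a group only.

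The members and lists were chosen with earlier results of these data known. Named in the text were all 13 mitochondrial genes, in each comparison up to 5 nuclear members highest and 5 lowest among those called with a mean of at least 2 CPM, those with the highest and lowest levels, tissue-restricted forms, and up to 3 genes per list. Other members were named after their values were seen where a count of 5 or fewer needed it. Alternatives were RLE factors, library totals alone, scaling without mitochondrial genes, no filter, DESeq2 1.42.0, a replicate block, and leaving out each library.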

Additional observations from a re-analysis of the deposited data

Results flagged for a closer look

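The effect of UTX differed between media by the interaction test for the 9 members named here. They are among 20 of 55 tested nuclear members with a more negative interaction (36.36%), 3 with a more positive one (5.455%) and 1 of 13 mitochondrial genes, more positive. Over all genes 16.2% were more negative and 21.1% more positive. The interaction (effect in tumorsphere medium minus effect in full medium, log2) was -0.512 for UQCRC1, -0.468 for COX6C, -0.42 for NDUFV1, -0.418 for NDUFA5 and -0.395 for COX6A1. It was 0.4 for CYTB, 0.218 for NDUFC2, 0.217 for NDUFB3 and 0.172 for NDUFV3.

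The effect of HEAA differed between media for the 9 members that follow, in a comparison that shares its empty vector libraries with that of UTX. They are among 8 of 55 tested nuclear members with a more negative interaction (14.55%) and 4 with a more positive one (7.273%). Over all genes 14.3% were more negative and 18.7% more positive, so the member calls are near or below these shares. The split changed direction when single libraries were left out. The interaction was -0.332 for UQCRC1, -0.28 for NDUFV1, -0.276 for NDUFS7, -0.261 for NDUFB7 and -0.26 for COX6C. It was 0.345 for NDUFA12, 0.342 for NDUFV2, 0.228 for NDUFC2 and 0.205 for UQCRFS1.

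Several genes had every UTX library above every empty vector library in the second experiment and below them in full medium of the first. The differences between the experiments were not tested. UQCRC2 had log2 changes of 0.481 beside wild-type FGFR3 and 0.485 beside S249C. Beside S249C the changes were 0.825 for COX2, 0.747 for COX3, 0.475 for ND3 and 0.199 for NDUFA4.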

How the results depend on the processing

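Over 283 results of single named genes, 3732 values under other settings gave 0 reversed signs where either fit called the gene. Sign changes of genes called in neither fit were not counted. RLE factors left all 283 on their side of the threshold, DESeq2 moved 5 below it, and scaling without mitochondrial genes moved 2 below it. Library totals alone moved 3 below and 16 above it. Leaving out 1 library moved 116 values below and 31 above it. The mean of log2(CPM + 1) over genes, in place of summed counts, gave the mitochondrial to nuclear difference as 0.661 for UTX against the empty vector in tumorsphere medium, and -1.19, -0.908 and -1.22 for tumorsphere against full medium with the empty vector, UTX and HEAA. With 1 library left out, members called ran from 6 to 20 for UTX against HEAA in full medium (17), 2 to 14 for S249C against wild-type FGFR3 with the empty vector (9), 0 to 1 with UTX (1), and 0 to 1 for the interaction with the receptor (0, ND6 being called without S249C empty vector replicate 2). By library totals alone the split of all calls went from 4477 higher and 5027 lower to 6020 and 3366 for UTX and from 3906 and 4212 to 5560 and 2695 for HEAA against the empty vector in tumorsphere medium, and from 836 and 1252 to 1060 and 1057 for S249C against wild-type FGFR3 with the empty vector.

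Over all genes, deviations of same-numbered libraries correlated between -0.0636 and 0.0633 over 45 pairs in the first experiment. In the second they correlated between -0.0862 and 0.156 over 18. The highest value was for replicate 3 of the 2 UTX groups. KDM6A was lowest there in each group, at 739 CPM against 863 and 869, and at 700 against 941 and 946. Low correlations cannot show that same-numbered libraries share no culture or batch. With the replicate block, members called were 57 in place of 58 for UTX and 59 for HEAA against the empty vector in full medium, 57 and 53 in tumorsphere medium, 18 for UTX beside S249C and 21 for the UTX interaction with medium.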
